A study of Homo sapiens with 6 samples.

Results

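The 47 genes described here act in the response to double-stranded RNA and interferon and in MHC class I antigen presentation. They were chosen by name, without a rule on measured values but with earlier results of these data known. All 47 were among the 38637 genes of the expression table. The measurements came from HCCLM3-SR, a human hepatocellular carcinoma line made from HCCLM3 that resists sorafenib, sequenced as 3 libraries with siRNA against the circular RNA cDCBLD2 (knockdown) and 3 libraries with control siRNA. The cells of all 6 libraries were given the multikinase inhibitor sorafenib at 5 µM and were transfected for 3 days. Both groups therefore carried drug resistance, sorafenib and a transfected double-stranded siRNA, and no library without siRNA or without sorafenib was analysed here. The knockdown used an siRNA in 1 cell line, and the labels do not say whether the 3 libraries of a group came from separate cultures, so p-values measure the spread between these libraries, which may be technical. The question was whether the siRNA against the circular RNA and the control siRNA differed in innate sensing.

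Cells recognise double-stranded RNA with cytoplasmic helicases such as MDA5 (IFIH1) and RIG-I, with the kinase PKR (EIF2AK2), with the OAS enzymes, and with TLR3 in endosomes. The helicases and TLR3 signal through IRF3 and IRF7 to the type I and type III interferon genes. Secreted interferon binds its receptors, and the kinases JAK1 and TYK2 then activate STAT proteins, among them STAT2, which joins IRF9 in the complex ISGF3. This complex binds the interferon-stimulated response element (ISRE) in the promoters of effector genes, whereas the gamma-activated sequence (GAS) is the element of the response to interferon gamma. Interferon also raises the immunoproteasome subunits, the peptide transporter TAP and the MHC class I heavy chains. The heavy chains pair with β2-microglobulin (B2M) in the endoplasmic reticulum, where the pair is loaded with peptide before it moves to the cell surface.

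The promoter sequences were searched for an exact core of the element that ISGF3 reads. A RefSeq promoter window on GRCh38.p14, from 250 bases before to 50 bases after an annotated start, was at hand for 37 of the 47 genes. OAS2, IFITM2, MX2, IFIT2, IRF3, OASL, DHX58, USP18, IRF7 and HLA-E had none. The ISRE core was searched as GAAANNGAAA on both strands and the GAS core as TTCNNNGAA, which reads the same on both strands, and matches of the 2 motifs may overlap. An ISRE core lay in the windows of 27 of the 37 genes (73.0%), against 1195 of all 27305 genes with a window (4.38%). A GAS core lay in 13 of the 37 (35.1%), against 2560 of the 27305 (9.38%). A match is a description of the letters in the window, not evidence of binding. Forms of the element with other spacing were not counted, such as GAAACGAAA in the window of OAS1. A gene without a match may therefore still hold an element.

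Representative matches follow with 10 bases on each side, 5′ to 3′ on the strand of the gene, the ISRE core in capitals (as its reverse complement where it lies on the other strand). The first 5 belong to genes that were lower in the knockdown libraries with the replicate block described later, the next 4 to genes that were higher, and the last 3 to genes without a call in either direction.
EIF2AK2, chr2:37156967-37156996, minus strand: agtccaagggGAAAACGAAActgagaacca
IFIH1, chr2:162318686-162318715, minus strand: gaagagaatcGAAACAGAAAccaaagtcag
PARP14, chr3:122680800-122680829, plus strand: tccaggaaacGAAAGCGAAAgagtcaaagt
DTX3L, chr3:122564322-122564351, plus strand: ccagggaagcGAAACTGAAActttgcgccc
TAP2, chr6:32838778-32838807, minus strand: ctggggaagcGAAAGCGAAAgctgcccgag
ISG15, chr1:1013380-1013409, plus strand: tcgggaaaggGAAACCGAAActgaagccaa
IFI6, chr1:27672288-27672317, minus strand: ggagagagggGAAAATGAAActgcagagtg
IFI27, chr14:94110631-94110660, plus strand: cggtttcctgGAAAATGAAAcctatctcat
PSMB8, chr6:32844032-32844061, minus strand: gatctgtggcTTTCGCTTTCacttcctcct
IFIT1, chr10:89392497-89392526, plus strand: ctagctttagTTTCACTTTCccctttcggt
IFITM3, chr11:320876-320905, minus strand: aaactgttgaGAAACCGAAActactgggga
B2M, chr15:44711363-44711392, plus strand: gagactctaaGAAAAGGAAActgaaaacgg

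The site of DTX3L is also the site of PARP9, which is transcribed from the other strand. DTX3L starts at base 122564338 of chromosome 3. The annotated PARP9 gene runs on the minus strand from base 122564784, so the annotated genes overlap at their first bases. The shared site lies in the window of another PARP9 start, chr3:122564251-122564550. The window of the start at 122564784, chr3:122564735-122565034, held no match. The strand setting of the authors' counting is not stated in the sources used here, and reads from the overlap cannot be assigned to 1 of the 2 genes. The whole window of DTX3L, chr3:122564088-122564387 on the plus strand, is shown because 2 of the 47 genes share its ISRE core, given in capitals.
DTX3L window: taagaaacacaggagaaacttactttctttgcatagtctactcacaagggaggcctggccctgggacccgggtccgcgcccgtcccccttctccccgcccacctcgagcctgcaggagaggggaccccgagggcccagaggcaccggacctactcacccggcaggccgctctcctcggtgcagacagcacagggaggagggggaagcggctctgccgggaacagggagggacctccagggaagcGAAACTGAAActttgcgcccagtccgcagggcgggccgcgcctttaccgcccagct

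Several of the genes are neighbours in the genome. Chromosome 6 carries 7 of them, namely HLA-B, HLA-C, HLA-E, TAP1, TAP2, PSMB8 and PSMB9 in the MHC region. The 4 IFIT genes lie together on chromosome 10, the 3 IFITM genes on chromosome 11 and OAS1, OAS3 and OAS2 in a row on chromosome 12. How reads that match several of these similar genes were handled is not stated in the sources used here, so values within the IFITM and HLA families are uncertain, and HLA reads also depend on how close the alleles of the line are to the reference.

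Levels are given in TPM (reads scaled by transcript length and by library), a scale per transcript length on which genes can be compared within a library. Whole reads could be recovered from the TPM values, and the recovered totals were between 17492673 and 23064302 reads per library, which are lower bounds on the reads counted. Replicate 1 was set against the mean of the other replicates in each group. In the knockdown, 24 of the 42 tested genes described here were lower in replicate 1, and in the control 30 of 42 were lower. Over all 13980 genes tested the balance was the other way. There, 5826 were lower and 8143 higher in the knockdown, and 6253 lower and 7718 higher in the control. The linear host gene DCBLD2 was at 58.2, 25.9 and 31.6 TPM in knockdown replicates 1 to 3 and at 71.5, 48.5 and 50.7 TPM in the controls. Its log2 fold change was -0.61 with an adjusted p of 0.253 in the limma fit and 0.0139 with the replicate block, and it was -0.30 with the GC offset described later. The libraries were made by PolyA-Seq, which selects RNA with a poly(A) tail and so leaves out circles without one, and this value of the linear RNA does not check the knockdown of the circle. Of the hepatocyte markers, the transcription factor HNF4A was at 22.9 to 31.3 TPM. ALB was at 0.189 to 1.59 TPM and GPC3 at 0 to 0.135 TPM, so these 2 markers of the labelled tissue were at or near 0.

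Across both groups, the 47 genes were held at very unequal levels. IFITM3, a membrane protein that restricts virus entry, was the most abundant of the 47 genes at 702 to 901 TPM. B2M, the light chain of MHC class I, followed at 308 to 350 TPM and ISG15, a ubiquitin-like modifier, at 242 to 299 TPM. OAS1 and OAS3, which make the 2-5A that activates RNase L, were at 91.6 to 163 TPM and 98.5 to 131 TPM. By contrast, 5 of the 47 genes averaged under 1 TPM and were not tested. These were TLR3 at 0.0706 to 0.228 TPM, the GTPase MX2 at 0.0332 to 0.194 TPM, the ISG15 ligase HERC5 at 0.0263 to 0.0735 TPM, XAF1 at 0.244 to 0.554 TPM and CD274, which encodes PD-L1, at 0.0664 to 0.307 TPM. HERC5 rested on 1 to 2 recovered reads per library.

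**Figure D1:**
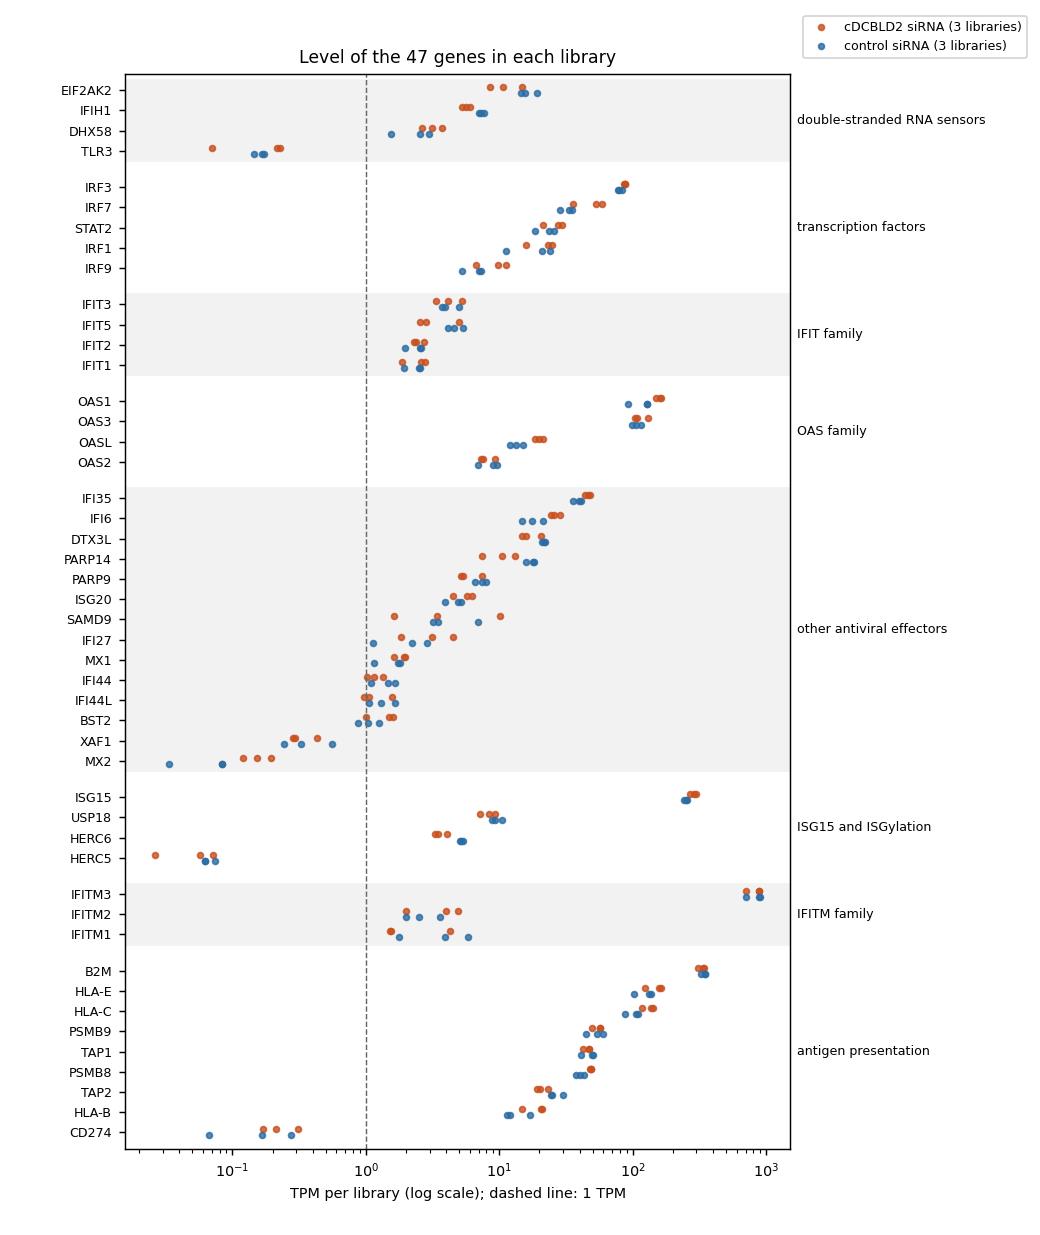
TPM of each of the 47 genes in each library on a log axis, grouped by role, with 3 points for cDCBLD2 siRNA and 3 for control siRNA; the dashed line marks 1 TPM. IFITM3 sits at 702 to 901 TPM at one end, and TLR3, MX2, HERC5, XAF1 and CD274 lie left of the dashed line.

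Several genes upstream of the members were at or near 0 in both groups. IFNA1, IFNL1, IFNL3 and IFNG were listed at 0 in all 6 libraries. IFNB1 was listed at 0 in 5 libraries and above 0 in knockdown replicate 1. Reads cannot be recovered for a gene above 0 in only 1 library, because the recovery uses ratios between libraries. A count of 0 allows up to 3 reads per library, so a lower level was not detectable at this depth. The receptor chain IFNAR2 was at 22.3 to 29.6 TPM, JAK1 at 78.0 to 95.7 TPM and TYK2 at 39.0 to 49.7 TPM. STAT2 and IRF9 were at 18.7 to 29.5 TPM and 5.25 to 11.2 TPM. The cytosolic DNA sensor CGAS was at 0.0450 to 0.185 TPM, and the interferon-induced chemokine CXCL10 was listed at 0 in 4 libraries. The recovered count of CXCL10 in the others, no more than 1 read, is a lower bound.

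No member passed an adjusted p of 0.05 in the comparison of knockdown and control. In limma on log2(TPM + 1) over 13980 genes that averaged 1 TPM or more, 0 of the 42 tested members were higher and 0 were lower, against 0.250% and 0.629% of all genes tested (0.880% in either direction, and 0.129% with an absolute log2 fold change over 1 as well). At an unadjusted p under 0.05 there were 14 of the 42 (33.3%), beside 26.1% of all genes. Limma-voom on the recovered reads also called 0 of 43 members while it called 193 genes higher and 259 lower in all, and 13 members (30.2%) were at an unadjusted p under 0.05, beside 26.5% of its genes. The median log2 fold change of the 42 was 0.07 beside -0.08 over all genes tested, with 25 of the 42 above 0. The 3 knockdown libraries all lay above the 3 controls in 9 members and all below in 5, which is 33.3% of the 42, beside 31.9% of all genes (9.58% above and 22.3% below).

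With the replicate number of the labels as a block in the same fit, 13 of the 42 members were called higher and 6 lower at an adjusted p under 0.05, beside 9.94% and 25.0% of all genes tested. The share called in either direction is 19 of 42, against 35.0% of all genes. Members called higher were the transcription factors IRF7, IRF9 and STAT2, the effectors OAS1, OASL, IFI6, IFI27, IFI35 and ISG15, and the antigen presentation genes HLA-B, HLA-C, HLA-E and PSMB8. Those called lower were the sensors EIF2AK2 and IFIH1, the ADP-ribosyltransferase PARP14, the ubiquitin ligases DTX3L and HERC6, and the transporter subunit TAP2. None of the 19 reached an absolute log2 fold change of 1, a threshold that 1.21% of all genes passed together with the adjusted p. Without knockdown replicate 1, the unblocked fit called 5 members higher and 8 lower, beside 4.61% and 19.8% of all genes. With any other single library left out it called 0 of all genes, and so 0 members. Without replicate 1 of both groups it called 11 higher and 8 lower, beside 9.89% and 25.6%, and limma-voom on the recovered reads with the block called 16 and 5, beside 17.5% and 20.5%. In bulk RNA, a change in the number of cells that express a gene and a change in RNA per cell cannot be told apart.

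**Figure D2:**
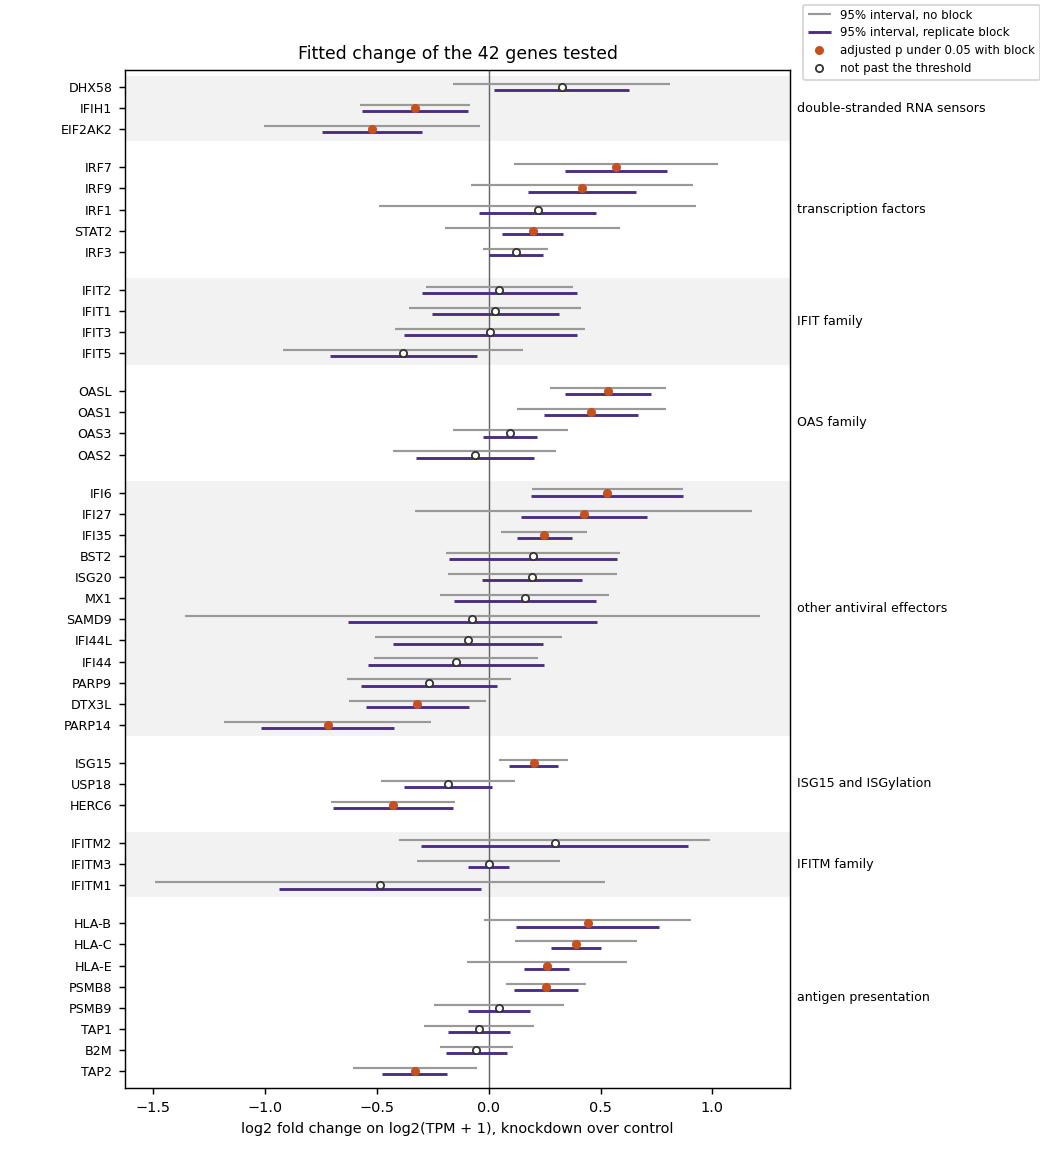
Fitted log2 fold change of the 42 tested genes (knockdown over control, on log2(TPM + 1)) by role, with 95% intervals from limma without a block in grey and with the replicate block in purple; filled points passed an adjusted p of 0.05 with the block. Filled points number 13 to the right of 0 and 6 to the left, and none lies beyond 1 in size.

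The block compares same-numbered libraries, so the genes it called were chosen for a steady difference within these pairs, and the pairs are shown as a description. Each of the 13 members called higher was higher in knockdown than in the same-numbered control in all 3 pairs, and each of the 6 called lower was lower in all 3. For 5 of the 6 members called lower, the difference was smallest in replicate 1. PARP14, for example, differed by -0.42 in replicate 1, by -0.99 in replicate 2 and by -0.75 in replicate 3 on the log2(TPM + 1) scale.

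**Figure D3:**
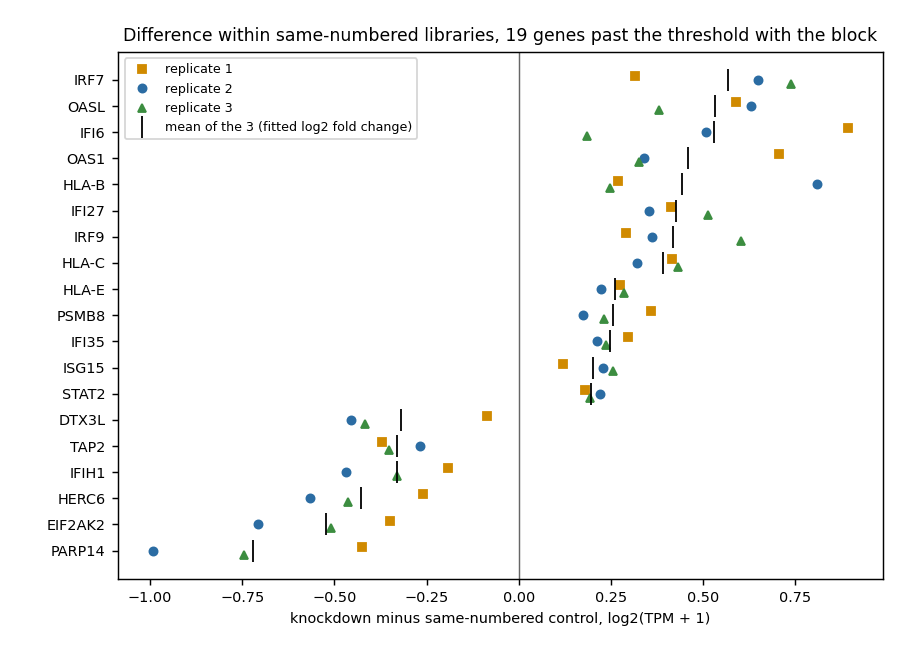
Difference between each knockdown library and the control of the same replicate number on log2(TPM + 1), for the 19 genes past an adjusted p of 0.05 with the block; squares, circles and triangles are replicates 1, 2 and 3, and the black tick is their mean. All points of the 13 upper genes lie right of 0 and those of the 6 lower genes left of 0, with replicate 1 nearest to 0 in 5 of these 6.

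The difference followed the base composition of the transcripts, in the members as in the genome at large. Spearman's rho between log2 fold change and the GC content of the longest transcript was 0.663 over the 42 members and 0.635 over 13161 tested genes with a GC content, given without a test because the genes share the same 6 libraries. Of the 24 members with at least 50% GC, 12 were called higher with the block and 0 lower, and of all genes in this class 19.3% were called higher and 5.56% lower. Of the 18 members under 50% GC, 1 was called higher and 6 lower, and of all genes in this class 2.02% were called higher and 44.6% lower. Members called higher had a GC content of 48.2% to 66.9% (median 55.4%) and members called lower of 38.7% to 49.1% (median 43.7%).

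With the trend of each library on GC content removed and the block kept, 11 members were called higher and 2 lower, beside 11.6% and 12.8% of the 13161 genes. HLA-C, HLA-E, IFI27, IRF7, IRF9, OAS1, OASL, PSMB8 and STAT2 were still called higher, and PARP14 and TAP2 still lower. The other 8 lost the call, at differences that shrank to unlike degrees. IFI6 went from 0.53 to 0.47 and HLA-B from 0.44 to 0.35, IFI35 from 0.25 to 0.15 and HERC6 from -0.43 to -0.26. By contrast, ISG15 went from 0.20 to 0.06, EIF2AK2 from -0.52 to -0.13, DTX3L from -0.32 to -0.08 and IFIH1 from -0.33 to -0.06. PSMB9, with a log2 fold change of 0.19, and B2M, with 0.30, gained it. The offset turned 7 members from below 0 to above 0, namely B2M, IFI44, IFI44L, IFIT5, OAS2, PARP9 and SAMD9, and none the other way, so that 32 of the 42 were above 0. Without the block, the same offset left 0 members called by limma, with 3 genes higher and 2 lower in all, and 10 members (23.8%) at an unadjusted p under 0.05, beside 20.8% of all genes.

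Among the sensors, the members tested were lower or without a call. EIF2AK2, the kinase that halts translation on double-stranded RNA, was at 14.8, 8.59 and 10.6 TPM in knockdown replicates 1 to 3 and at 19.1, 14.7 and 15.5 TPM in the controls. Knockdown replicate 1 lay just above control replicate 2, so the groups overlapped by 1 library. The log2 fold change was -0.52 (SE 0.20, n = 3 and 3), with a limma adjusted p of 0.167, and with the block SE 0.09 and adjusted p 0.0117, but it was -0.13 with the GC offset. IFIH1, or MDA5, which senses long double-stranded RNA, was at 5.28 to 6.0 TPM against 7.0 to 7.68 TPM, without overlap. It had a log2 fold change of -0.33, with a limma adjusted p of 0.117 and, with the block, of 0.0454, and -0.06 with the GC offset. DHX58, or LGP2, a helper of MDA5, was at 2.65 to 3.70 TPM against 1.56 to 2.99 TPM, with a log2 fold change of 0.33 and no call with the block (limma adjusted p 0.0887).

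The transcription factors of the pathway all had a log2 fold change above 0. In the blocked limma fit 3 of 5 were called higher, beside 9.94% of all genes. Limma-voom with the block called all 5 higher, IRF3 and IRF1 included, beside 17.5%. IRF7, which drives the amplifying wave of interferon transcription, was at 35.7, 52.8 and 58.8 TPM in the knockdown and at 28.5, 33.3 and 34.8 TPM in the control. Every knockdown library lay above every control library, knockdown replicate 1 by the smallest margin. The log2 fold change was 0.57 (SE 0.19), with a limma adjusted p of 0.133, and with the block SE 0.09 and adjusted p 0.0101. With the GC offset and the block it was 0.40 with a limma adjusted p of 0.0156, for the member with the highest GC content of those called.

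IRF9 and STAT2, the stable subunits of ISGF3, were also called higher with the block. IRF9 was at 6.64 to 11.2 TPM against 5.25 to 7.35 TPM, with a log2 fold change of 0.42 and a limma adjusted p of 0.0245 with the block. For STAT2 the difference was smaller, at 0.20 with an adjusted p of 0.0410 in the same limma fit. IRF3, the factor that sensors activate first and the most abundant of this group, was at 86.0, 87.5 and 88.1 TPM in the knockdown and at 83.6, 79.2 and 77.8 TPM in the control. Its groups did not overlap, but the log2 fold change was 0.12 (SE 0.06), with a limma adjusted p of 0.258 and 0.107 with the block. IRF1 was at 15.9 to 24.6 TPM against 11.3 to 23.9 TPM and was not called in either fit.

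The OAS family split into 2 genes called higher in the blocked limma fit and 2 without a call, beside 9.94% of all genes called higher. Limma-voom with the block also called OAS3 higher. OAS1 was at 150, 163 and 160 TPM in the knockdown and at 91.6, 129 and 127 TPM in the control. All 3 knockdown libraries were above all 3 controls, and control replicate 1 was the lowest of the 6. The log2 fold change was 0.46 (SE 0.14), with a limma adjusted p of 0.114, and of 0.0135 with the block. It was 0.57 with the GC offset and the block (limma adjusted p 0.00795).

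OASL, a relative of the OAS enzymes that lacks their activity and enhances RIG-I signalling, was at 18.6, 21.3 and 19.9 TPM in the knockdown and at 12.1, 13.4 and 15.1 TPM in the control. The groups were again separate, with the narrowest spread of the members that differed by over 0.5. Its log2 fold change was 0.53 (SE 0.11), with a limma adjusted p of 0.0655, and with the block SE 0.08 and adjusted p 0.00809. OAS3 had a log2 fold change of 0.10 (95% interval -0.16 to 0.35) and OAS2 of -0.06 (-0.43 to 0.30), and their groups overlapped.

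The IFIT family, which binds viral RNA caps and is among the most inducible interferon targets, had no call in either fit. IFIT3 was at 5.25, 3.33 and 4.16 TPM in the knockdown and at 3.69, 3.91 and 4.97 TPM in the control. Knockdown replicate 1 was the highest and knockdown replicate 2 the lowest of the 6 libraries. The log2 fold change was 0.01, with a 95% interval of -0.42 to 0.43 and a limma adjusted p of 0.984. IFIT1 and IFIT2 were at 1.86 to 2.76 TPM over the 6 libraries, with log2 fold changes of 0.03 and 0.05. With the GC offset both were 0.33 and IFIT3 was 0.24, and the family median went from 0.02 to 0.29, still without a call with the block. IFIT5 was at 5.01, 2.82 and 2.55 TPM in the knockdown and at 5.37, 4.58 and 4.09 TPM in the control. Each knockdown value was below its same-numbered control, by the least in replicate 1, but knockdown replicate 1 exceeded control replicates 2 and 3. The log2 fold change was -0.38 (SE 0.22), with a limma adjusted p of 0.320 and, with the block, of 0.0729. With the GC offset the log2 fold change was 0.04.

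Of 12 other antiviral effectors tested, 3 were called higher with the block and 2 lower, beside 9.94% and 25.0% of all genes. IFI6, a mitochondrial and endoplasmic reticulum protein, was at 28.4, 25.6 and 24.4 TPM in the knockdown and at 14.8, 17.7 and 21.4 TPM in the control. The groups were separate, and the gap between same-numbered libraries ranged from 0.89 in replicate 1 to 0.19 in replicate 3 on the log2(TPM + 1) scale. Its log2 fold change was 0.53 (SE 0.14), with a limma adjusted p of 0.0930, of 0.0329 with the block and of 0.0543 with the GC offset and the block, where the log2 fold change was 0.47. IFI35, a leucine zipper protein that is an interferon target, was at 44.2, 47.8 and 46.5 TPM against 35.8, 41.2 and 39.3 TPM. The 3 knockdown values lay above the controls, with a log2 fold change of 0.25 (SE 0.08) and a limma adjusted p of 0.124, or 0.0166 with the block. IFI27 varied over 1.84 to 4.53 TPM in the knockdown and 1.14 to 2.87 TPM in the control, with a log2 fold change of 0.43 and an adjusted p of 0.0359 in the blocked limma fit.

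PARP14 had the largest difference of the 42 members in limma on log2(TPM + 1), though not with the GC offset or in limma-voom with the block. It was at 13.2, 7.44 and 10.4 TPM in the knockdown and at 18.0, 15.8 and 18.1 TPM in the control. No knockdown library reached the lowest control. Its log2 fold change was -0.72 (SE 0.19), with a limma adjusted p of 0.0933, and with the block SE 0.12 and adjusted p 0.0106. With the GC offset and the block it was -0.42 with a limma adjusted p of 0.0255. DTX3L and PARP9, which form a complex and share the ISRE core shown above, had log2 fold changes of -0.32 and -0.27. DTX3L was called lower with the block (limma adjusted p 0.0450) and PARP9 was not (0.143), and the difference between these 2 genes was not tested.

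The remaining effectors had no call in limma on log2(TPM + 1) with or without the block, although limma-voom with the block called ISG20 higher. MX1, the GTPase often used as a marker of interferon exposure, was at 1.63 to 1.98 TPM in the knockdown and 1.14 to 1.80 TPM in the control, with a log2 fold change of 0.16 (95% interval -0.22 to 0.54). IFI44, IFI44L, ISG20 and BST2 had log2 fold changes of -0.15, -0.09, 0.19 and 0.20, and of 0.24, 0.32, 0.19 and 0.12 with the GC offset. SAMD9 was at 10.0, 1.62 and 3.41 TPM in the knockdown and 6.95, 3.2 and 3.45 TPM in the control, so that replicate 1 was the highest of both groups. Its 95% interval ran from -1.36 to 1.21 without the block and from -0.63 to 0.48 with it.

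Of the 3 tested genes for ISG15 and the enzymes that attach or remove it, 1 was called higher and 1 lower with the block, and 0 were called with the GC offset added. Over all genes tested the block called 9.94% higher and 25.0% lower. ISG15 itself was at 270, 299 and 289 TPM in the knockdown and at 248, 255 and 242 TPM in the control. The groups were separate, at a log2 fold change of 0.20 (SE 0.06), with a limma adjusted p of 0.123, of 0.0213 with the block, and a difference of 0.06 with the GC offset. HERC6, a HECT ligase related to the human ISG15 ligase HERC5, was at 4.07, 3.30 and 3.50 TPM in the knockdown and at 5.07, 5.36 and 5.20 TPM in the control. Its groups were separate in the other direction. The log2 fold change was -0.43 (SE 0.12), with a limma adjusted p of 0.0941, of 0.0306 with the block and of 0.0828 with the GC offset and the block. USP18, which removes ISG15 and restrains interferon signalling, had a log2 fold change of -0.18 (95% interval -0.48 to 0.12).

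The IFITM proteins, which block the fusion of enveloped viruses, had no call. IFITM3 was at 708, 879 and 889 TPM in the knockdown and at 702, 901 and 876 TPM in the control. Same-numbered libraries were close to each other and replicate 1 was the lowest in both groups. The log2 fold change was -0.00 (95% interval -0.32 to 0.32 without the block and -0.09 to 0.09 with it). IFITM1 was at 1.51, 4.29 and 1.54 TPM in the knockdown and at 1.77, 5.78 and 3.92 TPM in the control. Its groups overlapped widely, with a log2 fold change of -0.49 (SE 0.42) and a limma adjusted p of 0.492, or 0.0890 with the block. IFITM2 was at 1.99 to 4.88 TPM over the 6 libraries and its log2 fold change was 0.29 (95% interval -0.40 to 0.99).

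Of 8 antigen presentation genes tested, 4 were called higher with the block and 1 lower, beside 9.94% and 25.0% of all genes. HLA-C, a class I heavy chain, was at 117 to 142 TPM in the knockdown and 87.6 to 109 TPM in the control, without overlap. It had a log2 fold change of 0.39 (SE 0.11), with a limma adjusted p of 0.108, and of 0.00577 with the block. HLA-B was much lower in level, at 14.7, 20.9 and 20.4 TPM in the knockdown and at 12.1, 11.5 and 17.1 TPM in the control. Control replicate 3 exceeded knockdown replicate 1, and the log2 fold change was 0.44 (SE 0.19), with a limma adjusted p of 0.207, of 0.0455 with the block and of 0.0896 with the GC offset and the block. HLA-E, the ligand of the inhibitory receptor NKG2A, was at 124 to 162 TPM against 102 to 136 TPM, with a log2 fold change of 0.26 and a limma adjusted p of 0.00920 with the block.

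The light chain B2M was at 335, 342 and 308 TPM in the knockdown and at 326, 347 and 350 TPM in the control. The groups overlapped, with a log2 fold change of -0.05 (95% interval -0.22 to 0.11) and a limma adjusted p of 0.642, and the sign turned to 0.30 with the GC offset. PSMB8, an immunoproteasome subunit, was at 47.5 to 48.4 TPM against 37.4 to 42.8 TPM, and its log2 fold change of 0.26 had a limma adjusted p of 0.0226 with the block. PSMB9, another subunit of the same particle, had a log2 fold change of 0.05. TAP1 and TAP2 form the peptide transporter. TAP1 was at 42.6 to 46.9 TPM against 40.9 to 50.4 TPM, with a log2 fold change of -0.04. TAP2 was at 19.3 to 23.1 TPM against 24.5 to 30.1 TPM, without overlap, with a log2 fold change of -0.33 and a limma adjusted p of 0.0122 with the block and 0.0278 with the GC offset added.

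Genes without the ISRE core were found among the members called higher, and genes with it among those called lower. Of the 10 members called higher that had a promoter window, 4 held the core (IFI6, IFI27, ISG15 and PSMB8), and of the 6 called lower 5 held it (IFIH1, EIF2AK2, PARP14, DTX3L and TAP2, but not HERC6). Of the 17 members with a window and no call, 15 held it. Outside the members, 379 tested genes with the core had a median log2 fold change of -0.11, with 8.44% called higher and 26.6% called lower with the block. The 10096 tested genes with a window and no core had a median of -0.09, with 10.0% called higher and 26.8% lower. No test was run on these shares, which count only the exact letters searched and miss other forms of the element.

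The same question was put to 104 further genes of the pathway, of which 78 were tested. Without the block, 0 of the 78 were called by limma in either direction, with 23 at an unadjusted p under 0.05, beside 26.1% of all genes. With it, 19 were called higher and 17 lower, beside the 9.94% and 25.0% of all genes. Adding the GC offset gave 15 higher and 5 lower, beside the 11.6% and 12.8%. Among 15 sensing and adaptor genes tested, 1 was called higher with the block and 6 lower. The adaptor MAVS, which relays RIG-I and MDA5 signals, was the one called higher, at a log2 fold change of 0.22. Those called lower included the kinase TBK1 at -0.48, the ligase TRAF6 at -0.50, the nuclease DICER1 at -0.77, the helicase DDX60 at -0.72, the PKR activator PRKRA at -0.40 and the editing enzyme ADAR at -0.21. Adding the GC offset left 1 of the 15 called higher and 1 lower, MAVS and DICER1, while TBK1 was at -0.10, TRAF6 at -0.18 and PRKRA at 0.02.

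Of 14 tested genes for interferon ligands, receptors and signalling, the block called 0 higher and 3 lower, beside 9.94% and 25.0% of all genes. These 3 were the receptor chain IFNAR1 at a log2 fold change of -0.46, IRF2, a repressor of interferon genes, at -0.37, and PIAS1, a SUMO ligase that restrains STAT signalling, at -0.86. PIAS1 was at 2.90 to 4.29 TPM against 6.58 to 7.31 TPM, and its limma adjusted p was 0.0554 without the block and 0.00945 with it. With the GC offset added, 1 of the 14 was called higher and 1 lower, beside 11.6% and 12.8% of all genes. These were the receptor chain IL10RB at 0.56 and PIAS1 at -0.51, while IFNAR1 was at -0.16 and IRF2 at -0.17. SOCS1 and SOCS3, the feedback inhibitors that interferon and other cytokines induce, had log2 fold changes of 0.07 and 0.04 without a call.

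Of 28 further interferon-stimulated genes tested, 11 were called higher with the block and 5 lower, beside 9.94% and 25.0% of all genes. APOL1, a lipoprotein component that interferon induces, was at 101, 157 and 205 TPM in the knockdown and 53.6, 83.0 and 100 TPM in the control. The lowest knockdown library lay just above the highest control. Its log2 fold change was 0.95, with a limma adjusted p of 0.13 and, with the block, of 0.00347. HELZ2, TRIM21 and PARP12 were also called higher with the block, at 0.44, 0.43 and 0.23, and IFI16, SAMHD1 and PLSCR1 lower, at -0.53, -0.32 and -0.32. Of the 28, 8 were called higher and 1 lower with the GC offset added, beside 11.6% and 12.8% of all genes. In that fit IFI16, SAMHD1 and PLSCR1 were at -0.14, -0.09 and 0.06 without a call. Of 22 other antigen presentation genes tested, 7 were called higher with the block and 4 lower, beside the same 9.94% and 25.0%. Higher were, among others, HLA-DMA, which helps load class II molecules, at 0.66, and tapasin (TAPBP) and its relative TAPBPL at 0.32 and 0.48. The chaperone CANX and the peptide-trimming enzyme ERAP1 were called lower, both at -0.32. After the GC offset was added, 5 of the 22 were called higher and 2 lower, beside the same 11.6% and 12.8%. CANX and ERAP1 were then at 0.01 and 0.05 without a call.

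Markers of other cell types were summed beside these results. Of 8 markers of fibroblasts and endothelium, 3 averaged at least 1 TPM. The summed level of the 8 was 10.2 to 22.6 TPM in the knockdown and 6.37 to 8.64 TPM in the control. The highest sum was that of knockdown replicate 1, with COL1A1 at 11.2 TPM against 3.61 and 3.64 TPM in knockdown replicates 2 and 3. COL1A2 was at 2.67 TPM there and at 0 elsewhere. COL3A1 was at 1.78 to 3.36 TPM in the knockdown against 0.476 to 0.783 TPM, and the endothelial PECAM1 at 4.35 to 5.11 against 3.63 to 5.64 TPM. Of 11 immune cell markers, 3 averaged at least 1 TPM, with sums of 107 to 135 TPM and 98.3 to 121 TPM, most of it CD68 at 90.0 to 125 TPM. CD3E and MS4A1 were listed at 0 in all libraries and PTPRC was at 0.231 to 0.411 TPM. Of 4 epithelial markers, 3 averaged at least 1 TPM, with sums of 5861 to 7006 TPM and 4855 to 5657 TPM, most of it the keratins KRT8 and KRT18. The part of these markers in the results above was not tested.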

How the data were processed

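RNA of 6 HCCLM3-SR samples, 3 with cDCBLD2 siRNA and 3 with control siRNA, was sequenced by the authors, who deposited TPM values per gene. The submitters' processing notes name fastp 0.20.1, HISAT2 2.1.0, StringTie 2.0 and hg38. The annotation, the counting step and its settings are not given in the sources used here. The 47 members and all gene lists were chosen with earlier results of these data known.

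The 13980 genes that averaged 1 TPM or more were tested with limma 3.58.1 in R 4.3.3 on log2(TPM + 1). The fit let the variance follow the mean, and p-values were adjusted by Benjamini and Hochberg's method. A fold change is on this scale and understates that of low genes. In Python 3.11.15, whole reads within 0.02 of a read were recovered from ratios of TPM values for 100.0% of 17285 genes above 0 in all libraries, against 0.0% with library factors moved at random. Limma-voom was run on genes with at least 10 recovered reads in 3 libraries. Intervals and floors from reads cover counting error only. The fit was also tested on simulated data.

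The replicate numbers come from the labels, which do not say what they mean. Deviations from the group means correlated at 0.560, 0.343 and 0.362 between same-numbered libraries and at -0.450 to 0.247 between differently numbered ones. The highest of the latter were between replicates 2 and 3 (0.247 and 0.215), not far below the same-numbered values there. The numbers were taken to pair the libraries, and the blocked fit is given beside the main one. GC content came from GENCODE 29 and was found for 94.1% of tested genes. Its trend was removed by loess with a span of 0.5.

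Values in every library are given for members with an adjusted p under 0.05 in either fit and an absolute log2 fold change of at least 0.5, for the 5 highest and 5 lowest fold changes, and for the most abundant member of each role. Alternatives were 2 other scalings, other filters, a pseudocount of 0.1, no trend, the replicate block, the GC offset, limma-voom, a fold threshold and leaving out each library. A fit without replicate 1 of both groups was chosen after seeing the data. Results for 2 further genes are not reported here.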

Additional observations from a re-analysis of the deposited data

How the results depend on the processing

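Without the block, 0 members were called in either direction under other scalings, filters, a pseudocount of 0.1, no trend, the GC offset and limma-voom. Of 13980 genes, upper-quartile scaling called 59 higher and 62 lower and median-of-ratios scaling 89 and 69. The pseudocount called 42 and 107 of them and no trend 0 and 1. The 5 TPM filter called 83 and 238 of 10245 genes and no filter 3 and 1 of 25278. The GC offset called 3 and 2 of 13161 and limma-voom 193 and 259 of 15018. Leaving out 1 library gave 0 to 5 members called higher and 0 to 8 lower, and a median log2 fold change of 0.023 to 0.122. The calls appeared only without knockdown replicate 1, beside 4.61% and 19.8% of all genes. The other fits of this kind called 0 of all genes. The replicate block, which pairs same-numbered libraries, gave 13 members higher and 6 lower, beside 9.94% and 25.0% of all genes. The block with the GC offset gave 11 and 2, beside 11.6% and 12.8%, and limma-voom with the block 16 and 5, beside 17.5% and 20.5%. Without replicate 1 of both groups there were 11 and 8, beside 9.89% and 25.6% of all genes. HLA-C, HLA-E, IRF7, IRF9, OAS1, OASL and PSMB8, 7 of the 13, were called higher in all 4 of these fits, and 2 of the 6, PARP14 and TAP2, lower. With a log2 fold change over 1 as a further threshold, 0 were called with or without the block.

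The members' median of 0.072 was 0.141 with upper-quartile scaling, 0.164 with median-of-ratios scaling, 0.157 above 5 TPM, 0.207 with the GC offset with or without the block, and 0.153 and 0.155 with limma-voom without and with it. Over all genes tested the median was -0.084, and -0.021 and -0.001 with these 2 scalings, which shift all genes together. The members' median stood above it by 0.156, 0.162 and 0.165. With the GC offset 7 of the 42 members turned from below 0 to above 0. Of the 16 members with values in every library, 4 changed sign under some alternative, of which B2M at -0.05 and IFITM3 at -0.00 lay within that shared shift of 0. B2M was at 0.016 and 0.039 with these 2 scalings, 0.295 with the GC offset and 0.043 with limma-voom. IFIT3 was between -0.127 and 0.137 when 1 library was left out, below 0 in 3 of the 6 fits (-0.127, -0.062 and -0.029), and at -0.196 without replicate 1 of both groups. IFIT5 was at 0.036 with the GC offset. IFITM3 was at 0.071 and 0.093 with the scalings, 0.098 with limma-voom and between -0.113 and 0.106 when 1 library was left out, above 0 in 3 of the 6 fits (0.046, 0.066 and 0.106). The cause of these turns was not tested. Members under 1 TPM rested on few reads, so differences in them were not detectable at this depth.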
